A study of Mus musculus with 6 samples.

Results

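Lysosomal hydrolases and membrane proteins were followed as a list of 37 named genes in day 5 mouse embryoid bodies sorted on 2 surface proteins. Of these, 33 had at least 1 probe set whose gene name, current or older, matched in the authors' comparison table, out of 12290 named genes in all. They were matched by name alone and by no measured value. Naglu, Arsb, Cd63 and Tfeb had no matching row in that table and were not analysed here. The 33 genes fall into 10 glycosidases, 3 sulfatases, 4 lipid-cleaving enzymes, 7 proteases, 4 soluble activators or carriers, and 5 membrane proteins.

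The cells were of CGR8, a mouse embryonic stem cell line, grown into embryoid bodies (floating aggregates that form the germ layers). Both groups carried the same line and day. Double-positive cells were sorted for surface CXCR4 and FLK-1, and double-negative cells carried neither. Each group had 3 independently collected samples with 1 Affymetrix Mouse 430 2.0 array each, made from 6 ug of total RNA. The series text speaks of RNA pools without saying what was pooled, so each p-value reflects only how these samples vary. All samples come from 1 line, which limits them as a model of other lines, and the label "embryonic stem cell" names the source of cells that had differentiated for 5 days.

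Lysosomes are acidic organelles that break down proteins, glycans and lipids delivered by endocytosis and autophagy. Their soluble hydrolases are made in the endoplasmic reticulum and carried to the lysosome mainly by the mannose 6-phosphate tag, while glycoproteins such as LAMP1 and LAMP2 line the membrane. In mouse embryos the visceral endoderm is rich in such degradative vacuoles. In human cells TFEB, a basic helix-loop-helix factor, activates many lysosomal genes through a promoter element whose core is CACGTG.

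That core was looked for in the members' promoters, although it is already known from lysosomal genes. The list was not defined by it, but its share here is a description and no independent support. RefSeq promoters (build GRCm38.p6, 250 bases before to 50 after a gene's start) were matched for 32 of the 37 genes. Galns, Asah1, Ctsb, Ctsh and Npc1 were unmatched. CACGTG reads the same on both strands, and it occurred in the windows of 10 of the 32 genes, or 31.2%. The share was 8.09% of the 27025 genes with a promoter of this length and 11.9% of the 9035 that were also measured here. The longer TCACGTG, searched on both strands and overlapping every match it extends, occurred in 9 of the 32 genes, against 4.29% of all genes. In other lysosome lists CACGTG occurred in 35% of 20 genes for mannose 6-phosphate tagging and sorting, 30% of 20 for MiT/TFE factors and mTORC1, 21.7% of 23 other membrane proteins and 21.1% of 19 V-ATPase genes. The lowest shares were 19.2% of 26 other lysosomal hydrolases and 18.8% of 16 autophagy genes. The stretches below show each match with up to 17 bases on either side, on the gene's strand and with the core in capitals. They are printed so that the flanks can be compared.
Lamp1 (chr8:13159083-13159168, + strand): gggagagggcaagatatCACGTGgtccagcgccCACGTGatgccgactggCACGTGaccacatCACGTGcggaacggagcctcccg
Mcoln1 (chr8:3500431-3500496, + strand): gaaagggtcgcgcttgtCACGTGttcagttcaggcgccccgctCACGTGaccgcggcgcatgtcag
Ctsa (chr2:164833744-164833800, + strand): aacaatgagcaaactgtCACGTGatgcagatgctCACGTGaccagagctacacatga
Ctsd (chr7:142387903-142387942, - strand): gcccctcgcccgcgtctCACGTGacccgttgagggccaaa
Ctsl (chr13:64370734-64370770, - strand): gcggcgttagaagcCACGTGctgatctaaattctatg
Gla (chrX:134601177-134601249, - strand): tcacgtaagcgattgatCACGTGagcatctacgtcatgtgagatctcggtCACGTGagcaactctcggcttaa
Glb1 (chr9:114401013-114401052, + strand): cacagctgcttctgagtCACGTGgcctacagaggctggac
Gaa (chr11:119267806-119267845, + strand): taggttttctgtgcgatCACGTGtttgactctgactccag
Arsa (chr15:89477418-89477457, - strand): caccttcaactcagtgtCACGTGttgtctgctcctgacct
Naglu (chr11:101070004-101070043, + strand): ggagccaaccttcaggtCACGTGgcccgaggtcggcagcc

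Lamp1 held 4 copies within 61 bases of its start, and Mcoln1, Ctsa and Gla held 2 each in the stretches shown. Ctsd had a further copy 245 bases before its start. A match describes letters in a window and shows no binding. Among the 28 measured genes with a promoter, the 9 with CACGTG had log2 differences between fractions from -0.43 to 0.31 with a median of -0.05. The 19 without it ran from -1.57 to 0.68 with a median of -0.08. Without both replicate 1 arrays these medians were -0.27 and -0.20, in the opposite order. Manba, Ids and Lamp2, the genes with the lowest values in double-positive cells, had no match in their windows.

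Values are linear ratios of each probe set to the median of the 3 double-negative arrays. How bright a probe set was cannot be read from them, and their precision is limited by the number of arrays. Of the 33 genes, 31 were represented by a probe set with a flag pass value of 6, read here as detection on all 6 arrays. Glb1 had 5 and Neu1 had 2. Transcripts of the sorted proteins were higher in the double-positive cells, Cxcr4 by 5.55-fold and Kdr, which encodes FLK-1, by 6.17-fold (limma adjusted p = 0.221 and 0.527). The groups did not overlap for either gene. Still, Kdr was 3.929 in double-negative replicate 2 and 4.943 in double-positive replicate 1.

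Both replicate 1 arrays stood apart from the others. The median ratio over all genes was 0.76 in double-positive replicate 1 and 0.747 in double-negative replicate 1, and 1 to 1.08 in the other 4 arrays. The 5′ probe sets of the Gapdh and beta-actin controls, set against their 3′ probe sets, were lower in those arrays too. Each of these probe sets had already been divided by its double-negative median. Relative to that median, the mean log2 ratio of 5′ to 3′ was -0.51 in double-positive replicate 1 and -2.03 in double-negative replicate 1. It was 0.02 to 0.06 in the rest. The ratio compares arrays with each other and does not show how intact the RNA was on any of them. As a sign of RNA quality it moved with the lysosomal values in the same arrays, and its part in them was not tested. Results are therefore also given without both replicate 1 arrays.

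Markers of other cell types were compared between the same arrays. The 5 pluripotency markers had geometric mean ratios of 0.233 to 0.351 in double-positive and 0.773 to 1.21 in double-negative arrays. The 8 mesoderm and endothelial markers, which include Cxcr4 and Kdr, had 2.28 to 3.85 and 0.681 to 1.5. In the next 3 lists the groups overlapped. The 6 visceral and extraembryonic endoderm markers with a row (6 had none) ran from 0.4 to 1.29 and from 0.561 to 1.2. Of these markers 5 had a lower mean in double-positive cells, where 45.6% of all genes did. The other, Lrp2, was higher, with a log2 difference of 0.94. The median of the 6 was -0.42. The 6 trophoblast markers with a row (2 had none) ran from 0.657 to 1.48 and from 0.546 to 1.55, with log2 differences in both directions, such as -1.65 for Tfap2c and 1.18 for Plac1. The 4 macrophage and blood cell markers with a row (Ptprc, Itgam and Lyz2 were among the 6 without) ran from 1.02 to 1.69 and from 0.948 to 1.11. The part of cell composition in the lysosomal values was not tested, and in sorted bulk RNA fewer cells of a type and less RNA per cell cannot be told apart.

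The comparison asked which lysosomal transcripts differed between the fractions. Manba, Ids and Lamp2 were lower in double-positive cells, by 2.97-, 2.20- and 1.83-fold. The protease gene Ctsh and the sulfatase gene Galns were higher, by 1.67- and 1.57-fold. By the representative probe set of each gene, the groups of 3 arrays did not overlap for these 5 genes and overlapped for the other 28. In limma's moderated test with Benjamini-Hochberg adjustment, 0 of the 33 genes passed 0.05 over all 12290 genes (0% of all genes), and the smallest adjusted p among them was 0.468. Without that adjustment, 3 of 33 had a p under 0.05, all of them lower, against 5.14% of all genes (3.43% lower and 1.72% higher). Groups did not overlap for 3 genes on the lower side and 2 on the higher, where all genes gave 5.33% and 5.13%. With the replicate number as a block the unadjusted count was 7, with 5 lower and 2 higher, against 7.63% and 6.27% of all genes. Hexa, Npc1, Galns and Ctsh were the additions, and 0 passed the adjustment.

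**Figure D1:**
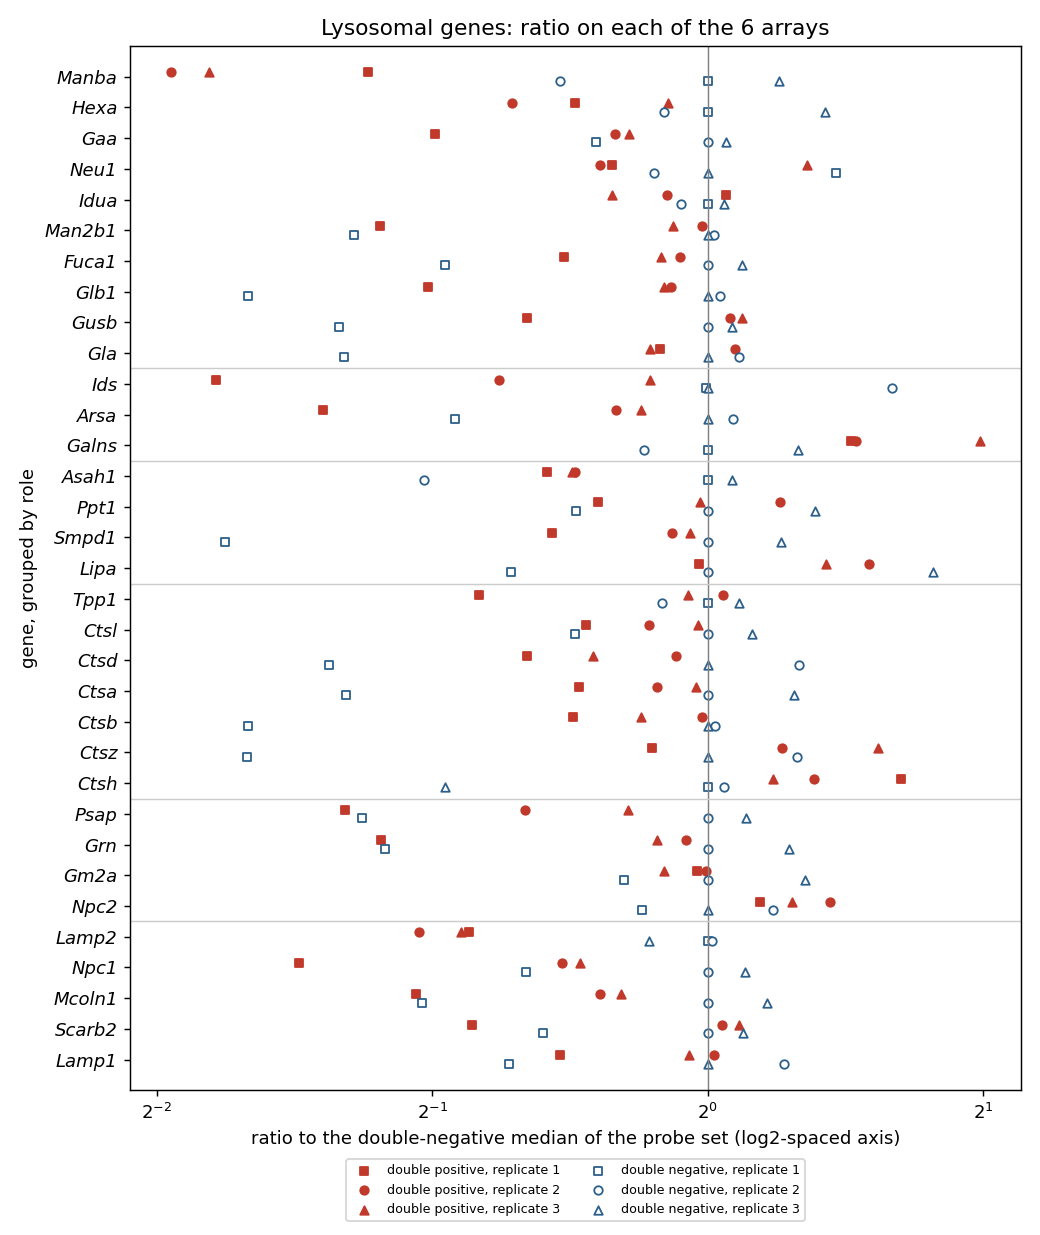
Ratio of each of the 33 genes on each array, on a log2-spaced axis, with genes grouped by role (glycosidases, sulfatases, lipid-cleaving enzymes, proteases, activators and carriers, membrane proteins, from the top). Filled red symbols are double-positive and open blue symbols double-negative arrays, and the symbol gives the replicate number. Manba, Ids and Lamp2 have all red symbols left of the blue ones, while double-negative replicate 1 is the leftmost symbol for many other genes.

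Glycosidases remove sugars from the ends of glycan chains. Manba, the beta-mannosidase that cleaves the last mannose from N-glycan remnants, had values of 0.426, 0.259 and 0.285 in replicates 1 to 3 of the double-positive cells and of 1, 0.69 and 1.198 in those of the double-negative cells (replicates are given in this order throughout, double positive first). Every double-positive array was below every double-negative array, and the same held within each replicate number. With 3 arrays in each group the difference was 2.97-fold (95% confidence interval 1.67 to 5.30), or -1.57 on the log2 scale (SE 0.366). Its adjusted p in limma was 0.468 over all genes and 0.112 with the replicate block. It was 0.0418 with the replicate block among genes that had all 6 flags. That setting called 1 of the 31 genes flagged on all arrays, against 0.942% of the 8602 genes tested. With array weights, which limma estimated from the scatter of each array about its group, 2 members passed the adjustment, Manba and Lamp2, against 3.53% of all genes. The largest weights were those of replicate 3, at 5.63 for double-positive and 3.22 for double-negative cells, so these calls rest mostly on that replicate. Over all settings tried the adjusted p of Manba ran from 0.00517 to 0.9999.

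Hexa encodes the alpha subunit of beta-hexosaminidase A, which degrades GM2 ganglioside. It stood at 0.717, 0.611 and 0.906 against 1, 0.895 and 1.344, lower within each replicate number although the groups overlapped slightly. The difference was -0.53 on the log2 scale (SE 0.335), with little spread over the 3 pairs (-0.48, -0.55 and -0.57). Gaa, the acid alpha-glucosidase that degrades glycogen, stood at 0.503, 0.792 and 0.821 against 0.756, 1 and 1.047. It too was lower in each of the 3 pairs, with a log2 difference of -0.43 (SE 0.346).

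On its representative probe set Gusb, the beta-glucuronidase, was higher in each of the 3 pairs, by 0.68, 0.08 and 0.03 on the log2 scale. Nearly all of that difference came from replicate 1. A second Gusb probe set, also with 6 flags, stood at 1.18, 1.302 and 0.951 against 0.565, 1.07 and 1, so it was lower in pair 3. The remaining 6 glycosidases, Gla, Glb1, Idua, Man2b1, Fuca1 and Neu1, had log2 differences from -0.22 to 0.31. For Gla and Glb1 the positive mean rested on pair 1 (1.14 and 0.65), and in pairs 2 and 3 both were slightly lower. Over the 10 glycosidases the median difference was -0.08, and 8 of 10 were lower in both pairs 2 and 3.

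Sulfatases remove sulfate groups from glycosaminoglycans and sulfolipids, and the 3 measured ones went in both directions. Ids, the iduronate 2-sulfatase of heparan and dermatan sulfate breakdown, stood at 0.29, 0.591 and 0.866 against 0.996, 1.59 and 1. The groups did not overlap, but the pairs were uneven, at -1.78, -1.43 and -0.21. The difference was 2.20-fold (95% confidence interval 1.07 to 4.54, limma adjusted p = 0.889). A second Ids probe set gave a log2 difference of -1.30 with double-positive replicate 3 above double-negative replicate 1. Galns, which desulfates keratan sulfate and chondroitin 6-sulfate, stood at 1.434, 1.452 and 1.984 against 1, 0.851 and 1.254. All double-positive arrays were above all double-negative ones, and the pairs were even (0.52, 0.77 and 0.66). Its difference was 1.57-fold (95% confidence interval 0.93 to 2.64, limma adjusted p = 0.9998). Arsa, which desulfates sulfatide, stood at 0.38, 0.795 and 0.846 against 0.53, 1.066 and 1, lower in each pair with both groups pulled down in replicate 1.

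Lipid-cleaving enzymes showed no common direction. Lipa, the acid lipase that hydrolyses cholesteryl esters, stood at 0.979, 1.501 and 1.345 against 0.609, 1 and 1.761. Smpd1, the acid sphingomyelinase, stood at 0.676, 0.914 and 0.956 against 0.297, 1 and 1.204. In Smpd1 double-negative replicate 1 was far below the other arrays, and the log2 difference went from 0.24 to -0.23 without both replicate 1 arrays. The second Smpd1 probe set, with 5 flags, stood at 1.188, 1.885 and 1.419 against 0.378, 1.027 and 1, which is 2.02-fold higher without overlap, so the probe sets of this gene disagree on pairs 2 and 3. Asah1, the acid ceramidase, stood at 0.667, 0.717 and 0.71 against 1, 0.49 and 1.062, with the double-positive values inside the double-negative range. Ppt1, a palmitoyl-protein thioesterase, had a log2 difference of -0.03 (SE 0.363), and the 95% confidence interval of -0.86 to 0.80 does not show equal levels.

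Among proteases the cathepsins H and Z had the highest values in double-positive cells. Ctsh, an aminopeptidase of the papain family, stood at 1.625, 1.308 and 1.179 against 1, 1.042 and 0.517. The groups did not overlap, and its second probe set gave the same picture, at 1.726, 1.363 and 1.221 against 1.124, 1 and 0.468. The difference was 1.67-fold (95% confidence interval 0.91 to 3.05, limma adjusted p = 0.9998), and it was 0.76 on the log2 scale without both replicate 1 arrays. Ctsz, a carboxypeptidase, stood at 0.87, 1.207 and 1.535 against 0.314, 1.253 and 1. Its log2 difference of 0.68 (SE 0.54) went to 0.28 without both replicate 1 arrays, since double-negative replicate 1 was its lowest value. All 3 Ctsz probe sets had higher means, between 0.59 and 0.76, and 1 of them did not overlap between groups.

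Ctsb, a cysteine protease of broad specificity, stood at 0.713, 0.985 and 0.846 against 0.315, 1.018 and 1. It was higher in pair 1 by 1.18 and lower in pairs 2 and 3, by values of -0.05 and -0.24. Ctsd, the main aspartic protease, followed the same course with 0.72, -0.45 and -0.42, and so did Ctsa, the carboxypeptidase that also protects beta-galactosidase and neuraminidase, with 0.85, -0.18 and -0.36. Ctsl and Tpp1 had log2 differences of -0.12 and -0.27.

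Soluble activators and carriers help hydrolases reach lipids. Psap, the precursor of the saposins, stood at 0.402, 0.631 and 0.818 against 0.419, 1 and 1.1, lower in each pair. Its second probe set, also with 6 flags, stood at 0.786, 0.971 and 1.037 against 0.521, 1 and 1.308, with a log2 difference of 0.07. Npc2, the soluble cholesterol carrier, stood at 1.142, 1.36 and 1.235 against 0.848, 1.179 and 1. It was higher in each pair, by 0.43, 0.21 and 0.30, and both of its probe sets had higher means. Grn, the precursor of the granulins, stood at 0.44, 0.946 and 0.88 against 0.444, 1 and 1.228. Gm2a, the activator that presents GM2 ganglioside to beta-hexosaminidase A, had a log2 difference of -0.08 (SE 0.321).

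All 5 membrane proteins had lower means in double-positive cells, with a median log2 difference of -0.31 where all genes had 0.04. Npc1, which passes cholesterol out of the lysosome after Npc2 delivers it, stood at 0.358, 0.693 and 0.725 against 0.633, 1 and 1.098. It was lower in each pair (-0.82, -0.53 and -0.60) while its partner Npc2 was higher in each, and the difference between these genes was not tested. Mcoln1, the TRPML1 calcium channel, stood at 0.48, 0.762 and 0.805 against 0.487, 1 and 1.161, with almost no difference in pair 1. Scarb2, the receptor that carries glucocerebrosidase, and Lamp1 had log2 differences of -0.07 and -0.05.

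Lamp2, a membrane glycoprotein with splice variants that differ in the membrane-spanning end and tail, gave a divided picture. Its representative probe set, 1416344_at, stood at 0.548, 0.484 and 0.537 against 1, 1.012 and 0.863. The 3 arrays of each group lay close together and apart from the other group. The difference was 1.83-fold (95% confidence interval 1.14 to 2.93, limma adjusted p = 0.766), and the authors' deposited table gives this probe set a fold of 0.546 and p = 0.00098. The other 3 probe sets of Lamp2, also flagged on all 6 arrays, did not follow it. Their log2 differences were -0.30 (1416343_a_at), 0.27 (1428094_at) and 0.00 (1434503_s_at), and their groups overlapped. Averaged over its probe sets Lamp2 came to -0.23. The transcripts that each probe set matches were not examined here.

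**Figure D2:**
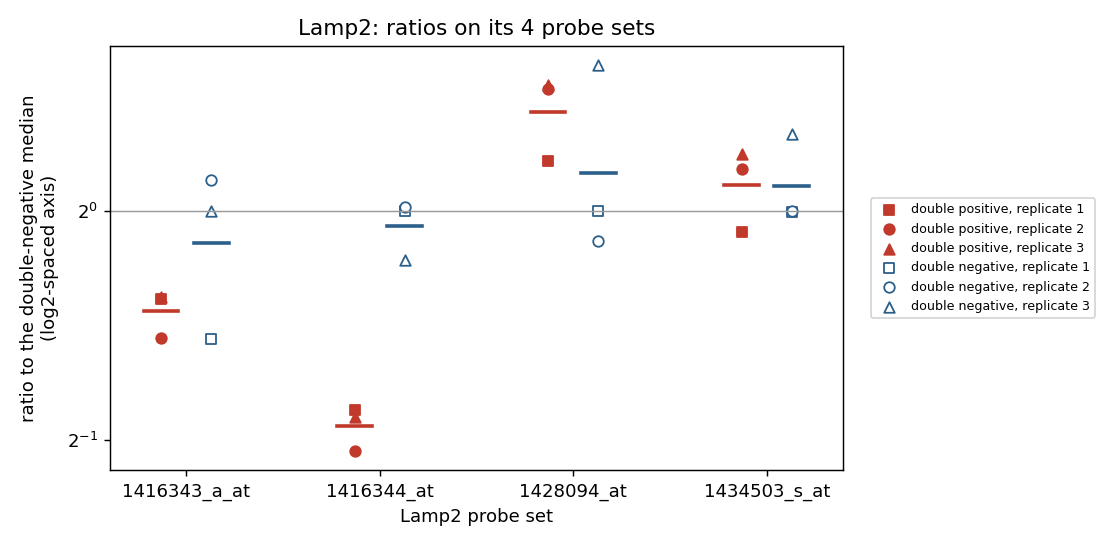
Ratios on the 4 Lamp2 probe sets on a log2-spaced axis, with points for arrays, filled for double positive and open for double negative, and bars for geometric means of 3 arrays. Only 1416344_at has all 3 double-positive points, 0.484 to 0.548, below all 3 double-negative points, 0.863 to 1.012.

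Probe sets also disagreed elsewhere. Of the 20 genes with several probe sets, 8 had log2 differences of both signs. The widest ranges after Lamp2 belonged to Lamp1, Ppt1 and Glb1, each with a probe set flagged on 2 arrays at an end of its range. Over all 64 probe sets of the list, limma on the whole value table gave 2 at an unadjusted p under 0.05, those of Manba and Lamp2, against 5.5% of 45037 probe sets, and 0 after adjustment. Groups did not overlap on 5 of the 64 probe sets on the higher and 3 on the lower side. The share among all probe sets is not given here, so these counts do not show whether the list stands out. By the representative probe set of each gene, all genes gave 5.13% on the higher and 5.33% on the lower side. Probe sets of the same gene are also counted separately, as for Ctsh on the higher side.

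The differences by gene, with and without the replicate 1 arrays, showed how much those arrays weighed. Over all 6 arrays 21 of 33 genes had a lower mean in double-positive cells, where 45.6% of all genes did, and the members' median log2 difference was -0.07 against 0.04 for all genes. Without both replicate 1 arrays 24 of 33 were lower, with a median of -0.20 against 0.02. In 19 genes both double-positive values were below both double-negative ones, against 22.1% of all genes, and in 3 both were above, against 22.4%. Manba, Lamp2 and Npc1 were lower at an unadjusted p under 0.05 there, against 6.89% of all genes, and 0 members passed the adjustment in limma. The medians by array show the same shift. Members stood at 0.676, 0.924 and 0.896 in double-positive replicates 1 to 3 and at 0.633, 1 and 1.06 in the double-negative ones. In genes flagged on all 6 arrays the medians were 0.731, 1.11 and 1.04 against 0.687, 1.015 and 1.

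**Figure D3:**
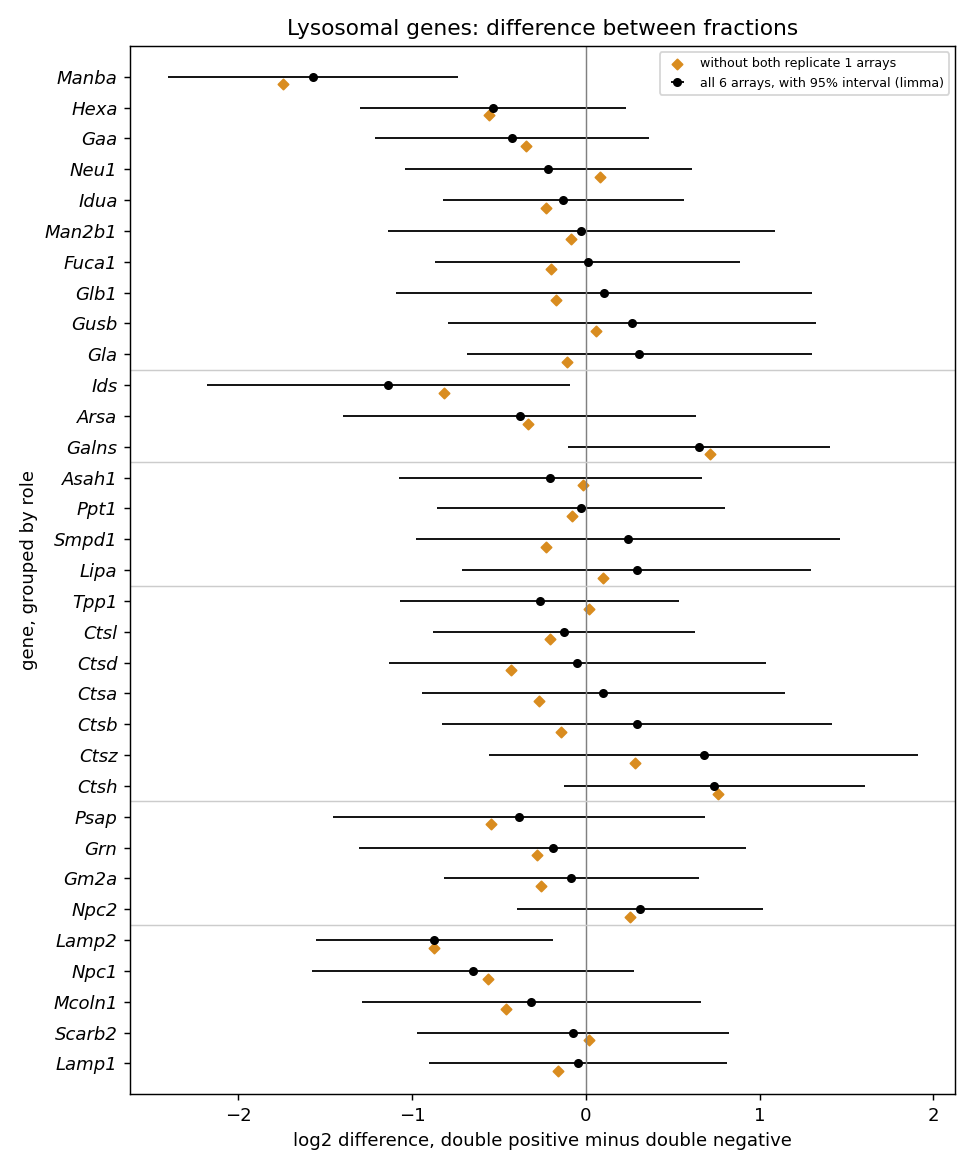
Log2 difference, double positive minus double negative, for each of the 33 genes. Black points and lines are the limma estimate over 6 arrays, without the replicate block, with its 95% confidence interval. Orange diamonds are the difference without both replicate 1 arrays. Intervals of Manba, Ids and Lamp2 lie below 0, and the diamonds of Ctsa, Ctsb, Ctsd and Smpd1 lie left of their points.

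By replicate number, the members' median difference was 0.08 in pair 1, -0.10 in pair 2 and -0.29 in pair 3, and all genes had 0.09, 0.01 and 0.02. The count of lower members was 14, 24 and 27 of 33. In 10 genes the double-positive array was lower in all 3 pairs, against 17.9% of all genes. These were Manba, Ids, Lamp2, Npc1, Hexa, Gaa, Arsa, Psap, Grn and Mcoln1. The 4 genes higher in all 3 pairs, against 23.2% of all genes, were Galns, Ctsh, Npc2 and Gusb. Both lists rest on the representative probe sets, and the second Gusb probe set was lower in pair 3. In pair 1 Grn, Mcoln1 and Psap differed by only -0.01, -0.02 and -0.06 on the log2 scale. In 22 of 33 genes the double-positive array was lower in both pairs 2 and 3, against 30.5% of all genes. In the related lists described below this share ran from 27.3% of 22 other lysosomal hydrolases to 47.4% of 19 V-ATPase genes.

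**Figure D4:**
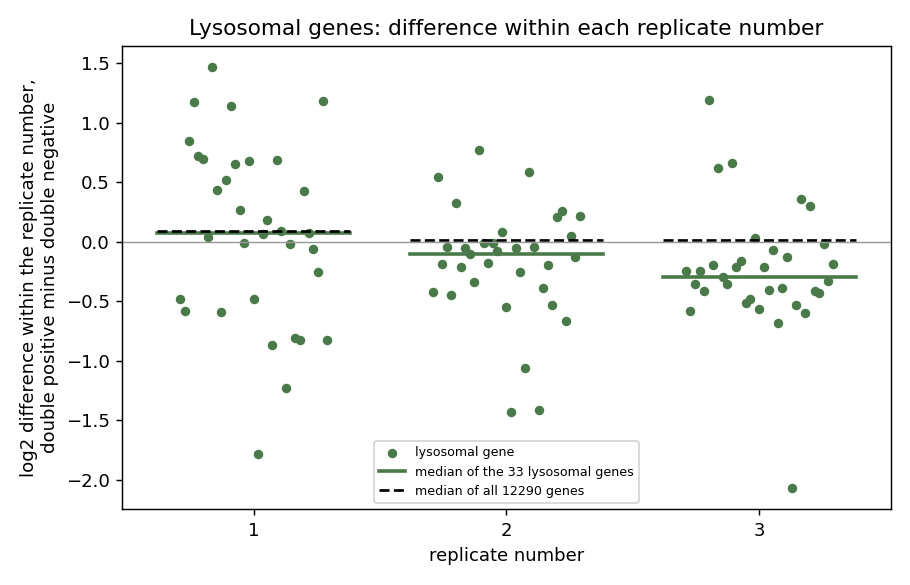
Log2 difference between the double-positive and double-negative array of each replicate number for the 33 genes (points, in alphabetical order from left to right), with their median (solid line) and that of all 12290 genes (dashed line). The solid line lies near the dashed one in replicate 1, at 0.08 and 0.09, and below it in replicates 2 and 3, at -0.10 and -0.29.

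Related genes from other steps of lysosome biology were set beside the members. Among 22 other lysosomal hydrolases 1 had an unadjusted p under 0.05, where 5.14% of all genes did. In that list 0 passed the adjustment, and the median log2 difference was 0.00. Ctsc, the dipeptidyl peptidase that activates granule serine proteases, stood at 1.783, 2.167 and 1.933 against 0.452, 1.023 and 1, or 2.53-fold higher (limma adjusted p = 0.649). The groups did not overlap.

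Against 5.14% of all genes, 1 of 21 other lysosomal membrane proteins had an unadjusted p under 0.05. It was Ostm1, the partner of the chloride transporter CLC-7, at 0.355, 0.591 and 0.697 against 0.912, 1.095 and 1. Of 24 genes for mannose 6-phosphate tagging and lysosomal sorting 1 did, Vps41, a subunit of the HOPS tethering complex, at 0.447, 0.488 and 0.584 against 1.366, 1 and 0.9. Among 19 V-ATPase genes, which encode the proton pump that acidifies the lysosome, 0 did, and the median was 0.16, or -0.01 without both replicate 1 arrays. The largest differences there belonged to Atp6v0e2 at -0.70 (SE 0.455) and Atp6v0c at 0.47 (SE 0.513). In each of these lists 0 genes passed the adjustment in limma over all 6 arrays at equal weight. With array weights 1 of 22 other hydrolases, Ctsc (limma adjusted p = 0.0278), and 1 of 19 V-ATPase genes, Atp6v0e2 (limma adjusted p = 0.0277), passed, where 3.53% of all genes did. Over all settings the adjusted p of each ran up to 0.9999.

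**Figure D5:**
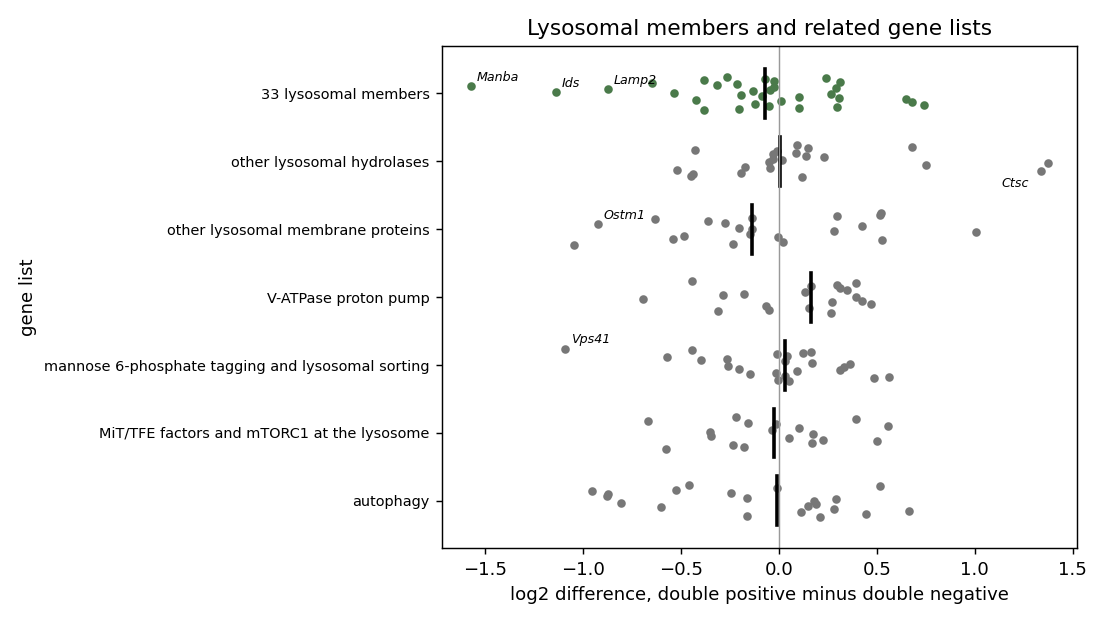
Log2 difference, double positive minus double negative, for the genes of 7 lists, the 33 members on top. Points are genes, black bars list medians, and names mark genes with an unadjusted limma p under 0.05. Manba lies furthest left at -1.57, and list medians lie between -0.14 and 0.16.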

How the data were processed

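The labels put 6 arrays in 2 groups of 3. The authors deposited linear ratios for 45101 probe sets; the double-negative median is 1 for 100% of them, so it was the divisor. How the authors summarised, background-corrected and scaled the arrays, and with what software, is not given in the sources used here. A comparison table deposited by the authors holds a fold change (the ratio of geometric group means, within 1% for 100% of probe sets), a p-value and, per the file headers, a flag pass value, which stands under unit "other". Its gene names were updated through RefSeq (GRCm38.p6, names only); 5 members matched through an older name alone. Each gene was represented by the probe set with the highest flag, then the plainest identifier, then the lowest number.

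Ratios were taken to log2 with no pseudocount and fitted over all genes with limma 3.58.1 in R 4.3.3 (lmFit, eBayes, two-sided, Benjamini-Hochberg, threshold 0.05), a procedure tested on simulated data. Alternatives were a replicate block, array weights, a trend and robust variance model, quantile and median scaling, pseudocounts of 0.437 and 1.75, probe set means, flag filters, all probe sets, and left-out arrays. Samples with the same replicate number deviated together (correlations over 12290 genes of 0.499, 0.398 and 0.242), so the numbers were taken as pairing the samples. These correlations depend on each other through the replicate 1 shift. Unless another setting is named, each limma SE, interval and p comes from the fit without the block, which leaves this pairing out. The SE of every member was smaller with the block, such as 0.194 against 0.406 for Npc1. Every member is accounted for. Values on each array are given for genes without overlap or with an unadjusted p under 0.05, and for the 3 largest differences of each role; of other lists, genes with such a p or else the 2 largest differences are named. Other members and genes named beyond this rule were chosen after their values were seen. The members and lists were chosen with earlier results of these data known. A related hydrolase gene is not reported here and was left out of its list.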

Additional observations from a re-analysis of the deposited data

How the results depend on the processing

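Only 3 arrays a group and the replicate 1 arrays limit these values, and signal over background is unknown. The members' median log2 difference (-0.07) ran from -0.33 to 0.13 under the 19 alternatives. In each it moved by less than the SD of the array medians within groups (0.339). That SD includes the low replicate 1 arrays and is larger than the difference itself, so this does not show a stable median. The sign of the median turned when double-positive replicate 1 (0.13) or replicate 3 of the double-negative cells (0.08) was left out. The cause was not tested. The all-gene median moved by over 0.1 when replicate 1 of the double-positive (0.21) or of the double-negative cells (-0.15) was left out, so member changes there are relative to that shift. In 14 genes the sign of the difference was the same in every alternative. Among them were Manba, Ids, Lamp2, Npc1, Hexa, Gaa, Galns, Ctsh and Npc2. In 19 genes it turned at least once, and 0 called differences were reversed. Apart from the probe set means, the alternatives used the representative probe set of each gene, so they did not vary that choice. Among the 14, the single probe sets of Lamp2, Psap and Idua had differences of both signs. Those of Lamp2 ran from -0.87 to 0.27.

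With the replicate block, alone or with arrays centred on their medians, and in genes with 6 flags with the block, members at an unadjusted p under 0.05 numbered 7 (5 lower, 2 higher), the same genes in each. Of all genes tested 13.9%, 13.8% and 16.2% had such a p in these settings, against 5.14% in the main fit. Array weights, which gave double-positive replicate 3 a weight of 5.63 and double-negative replicate 1 one of 0.163, gave 7 (5 lower, 2 higher) where 19.4% of all genes had such a p, with Mcoln1 in place of Ids, whose log2 difference went from -1.14 to -0.52, and left 7 members with a higher mean instead of 12. They called 434 genes over all (3.53%) and 2 members, Manba (limma adjusted p = 0.00517) and Lamp2 (limma adjusted p = 0.0471; 0.0471 to 0.9999 over all settings). The filter on 6 flags with the block called 81 genes and 1 member, Manba. The block changed no other call. Centring with the block, and leaving out both replicate 1 arrays for the related gene lists, were chosen after seeing the data. The trend and robust variance model gave 1 lower and 1 higher member at an unadjusted p under 0.05, against 1.47% and 2.36% of all genes. The pseudocount of 0.437 called 1 gene over all, and that of 1.75 called 4. The latter left 1 higher member at an unadjusted p under 0.05, against 3.13% of all genes. Quantile normalization left 0 members without overlap on the higher and 5 on the lower side (2.67% and 5.83% of all genes), and centring, with or without the block, 5 on the lower (8.15% of all genes). Without both arrays of replicate 1 there were 19 lower members without overlap, against 22.1% of all genes.

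With single arrays left out, 0 to 1 genes over all and 0 members were called. At an unadjusted p under 0.05, 1 to 3 members were lower and 0 higher. Of all genes 2.27% to 5.22% were lower and 0.757% to 2.38% higher at such a p. The median ran from -0.33 to 0.13, and 4 to 20 members had a higher mean. Without overlap, 2 to 3 members lay on the higher and 3 to 18 on the lower side. All genes gave 7.07% to 19.1% and 7.34% to 18.9% there. The 18 and the 4 were without double-negative replicate 1, where 18.9% of all genes lay lower without overlap. The count of 1 arose when replicate 2 of either group was left out. TCACGTG in place of CACGTG took the promoter share of members from 31.2% to 28.1%.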

Other observations

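Genes upstream of the lysosome were measured as well. Among 18 genes of the MiT/TFE factors and of mTORC1 signalling at the lysosome, 0 had an unadjusted p under 0.05 in limma and 0 passed the adjustment. Of all genes 5.14% had such an unadjusted p. Mitf was the only MiT/TFE factor in this list, as Tfeb, Tfe3 and Tfec had no matching row, so the counts describe mainly mTORC1 genes. Tsc1, a brake on mTORC1, stood at 0.349, 0.92 and 0.941 in double-positive replicates 1 to 3 and at 0.99, 1.224 and 1 in the double-negative ones, without overlap of the groups. The folliculin gene Flcn stood at 0.33, 0.622 and 0.667 against 0.426, 1 and 1.071, lower in each of the 3 pairs.

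Among 21 autophagy genes 0 had an unadjusted p under 0.05, against 5.14% of all genes, and 0 passed the adjustment in limma. With the replicate block 3 had an unadjusted p under 0.05, where 13.9% of all genes did. With array weights 1 of 21 passed the adjustment, against 3.53% of all genes. It was Gabarapl1, an ATG8 family gene, at 0.376, 0.426 and 0.556 against 0.365, 1 and 1.311 (limma adjusted p = 0.0375, and 0.0375 to 0.9999 over all settings). The cargo receptor gene Sqstm1 stood at 1.219, 0.72 and 0.831 against 5.882, 1 and 0.902, so its difference rested on double-negative replicate 1. The receptor gene Nbr1 stood at 0.262, 0.568 and 0.865 against 0.694, 1 and 1.151, lower in each of the 3 pairs.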
